A study of Oryctolagus cuniculus with 49 samples.

Results

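Growth factors and receptor tyrosine kinases were examined in the iris and ciliary body of New Zealand white rabbits after cataract-type surgery, in which the lens is taken out and an artificial intraocular lens put in. Members were the listed gene symbols that match a set of name patterns for FGF, VEGF, PDGF, IGF, EGF-like, neuregulin, HGF, angiopoietin and KIT ligands and their receptors, 49 of 12948 symbols and 76 of 16725 transcripts. The patterns hold no measured value. EGF itself and FIGF, the older symbol of VEGF-D, are listed but match no pattern, so they are not counted as members. The 26 libraries fall into 5 groups. Juveniles gave 3 operated eyes of 5 weeks, another 3 of 6.5 weeks and, as controls, 7 unoperated eyes of 5 weeks, and rabbits of 6 months gave 6 operated and 7 unoperated eyes. No allele, strain difference or drug is named in the labels, nor is the interval from surgery to tissue collection. No unoperated eyes of 6.5 weeks are among the samples, so in that group surgery and growth cannot be told apart. Each library carries a number of its own in the labels, and no label says more on how the animals were kept apart, so p-values measure the spread between these samples.

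Receptor tyrosine kinases sit in the cell membrane, pair up when a growth factor binds, and pass the signal on through adaptors, Ras and the ERK and AKT kinases to genes of growth, survival and movement. Some growth factors act between tissue layers, as FGF7 and HGF do, which come from mesenchymal cells and act on epithelia. The VEGF and angiopoietin families act on vessels, PDGFs on the pericytes and fibroblasts around them, and IGF binding proteins hold IGFs in the extracellular fluid. The iris and ciliary body hold vessels, pigmented and non-pigmented epithelium, smooth muscle, melanocytes and stroma.

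Levels are FPKM, fragments scaled to transcript length and library size, summed over the transcripts of a symbol. The sum of all FPKM was 412936 to 504202 per library, and read depth is unknown. The tissue label was checked against marker genes fixed with the gene lists. All 8 pigment cell and 8 of 9 ciliary epithelium markers were measured, with summed levels of at least 1242 and 952 FPKM in every library. Of 11 lens markers 4 were measured, and 8 libraries held over 1000 FPKM of the lens crystallin CRYAA. Among the 8 are unoperated 5-week replicates 2, 4, 5 and 7, so settings without them keep few young controls. Operated replicate 3 of 6.5 weeks was the lowest of all 26 libraries for 4 members and the highest for 6. Such counts were not particular to it. Operated 6.5-week replicate 1 was lowest for 2 and highest for 8, and operated 6-month replicate 4 lowest for 6 and highest for 2. Operated 6.5-week replicate 3 had 3.37 FPKM of FGF2, against 24.8 and 36.4 FPKM in the other operated 6.5-week eyes, and 0.65 FPKM of KITLG, against 4.66 and 5.46 FPKM. Results whose call or size rests on it are given with and without it.

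IGF binding proteins were the most abundant members. Averaged over the 5 groups, IGFBP7 stood at 955 FPKM, IGFBP4 at 395, IGFBP2 at 361, IGFBP6 at 220 and IGFBP5 at 99.4 FPKM. FGFR1 was the most abundant receptor at 232 FPKM, ahead of PDGFRB at 68.4 and FGFR2 at 33.8 FPKM. Among secreted ligands IGF1 was highest at 122 FPKM, and VEGFA, PDGFA, FGF2 and PDGFD lay between 26.4 and 31.2 FPKM. At the low end were HBEGF, KIT, NRG3, FGF14 and NRG2 at 2.66, 2.65, 1.65, 0.967 and 0.858 FPKM. FGFR1OP and FGFR1OP2 match by name, since they were found fused to FGFR1 in blood cancers, but they are not receptors. AREG, EREG, ERBB4, IGF2 and NRG1 are not analysed here.

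Every listed transcript exceeds 1 FPKM in all libraries of some group, where the 6 operated juveniles count as a single group, making 4 groups. Of the 49 members 39 have, in each of the 4, a transcript over that level in all libraries. FGF7 and IGF1R enter through operated groups alone, and FGF14, NRG2 and NRG3 through unoperated groups alone. Such a member has a transcript over 1 FPKM in every library of at least 1 group of that kind. In each group of the other kind, every transcript of the member is at 1 FPKM or less in some library. The direction of these members after surgery is therefore partly fixed by the listing. FGF14 and NRG2 enter through unoperated 6-month eyes alone and IGF1R through operated 6-month eyes alone, so their direction with age is partly fixed too.

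The first comparison asked how surgery changed the members at each age. Tests were made with limma on log2(FPKM + 0.5) over all 12948 genes, fold changes are on that scale and understate the change of low genes, and errors of log2 changes are SE. A member is said to have risen or fallen at a Benjamini-Hochberg adjusted p under 0.05. Each call was repeated under other pseudocounts, filters, scalings, moderation, covariates and transcript choices, with each library left out, with operated 5-week or 6.5-week eyes alone, without the 8 CRYAA-rich libraries and without the late-numbered animals. These are 3 rabbits of 5 weeks whose label numbers follow those of the 6-month rabbits. Of the calls at 6 months 16 of 27 held in every setting that tested the gene, at most 26. Of those in juveniles 9 of 26 did so, in at most 28. Members averaging under 5 FPKM are missing from 1 setting, the filter on that mean. The setting with no filter repeats the main fit, since the filter removed 0 genes. At 6 months 15 of 49 members rose and 12 fell in operated eyes, a share of 55.1%. Of all genes 46.1% were called in that comparison, 16% higher and 30.1% lower. In juveniles, where the mean of the operated 5-week and 6.5-week eyes was set against unoperated 5-week eyes, 16 members rose and 10 fell, or 53.1%. Of all genes 37.3% were called there, 16.5% higher and 20.8% lower. Both member counts include FGF7, FGF14 and NRG3, and that of 6 months NRG2, whose direction is partly fixed by the listing. The median log2 change of the members was 0.06 at 6 months and 0.13 in juveniles, against -0.11 and -0.06 over all genes. FPKM sums were higher in operated eyes at 6 months, at 476370 to 504202, against 431241 to 456586 in unoperated eyes. In juveniles they were 437259 to 490542 in operated eyes, against 412936 to 438564 in unoperated eyes, and scaling of libraries moved the split. Median-ratio scaling gave 16 members higher and 8 lower at 6 months, and scaling to an equal FPKM sum gave 11 higher and 18 lower. With the same scalings juveniles gave 19 higher and 9 lower, and 11 higher and 12 lower. For all genes at 6 months the counts were 2077 higher and 3892 lower as deposited, 2784 and 2614 with median-ratio scaling, and 1441 and 6121 with equal sums. In juveniles they were 2141 higher and 2694 lower as deposited, 2367 and 2335 with median-ratio scaling, and 1545 and 4670 with equal sums. Equal sums moved the median of all genes to -0.24 at 6 months and -0.18 in juveniles.

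Of the 49 members, 10 rose and 9 fell at both ages, none was called in opposite directions, 15 were called at neither age, and the other 15 at 1 age. Of the members that rose at 6 months 66.7% rose in juveniles too, against 74.0% over all genes, and of those that fell 75% fell in juveniles, against 55.2%. The age groups have separate controls, and these shares were not tested. The 10 that rose at both were FGF7, HGF, FGFR1, IGFBP4, IGFBP7, PDGFB, ANGPT1, ANGPT4, TIE1 and KDR. The 9 that fell at both were FGF14, FGFR2, MET, IGF1, EGFR, NRG3, PDGFA, PDGFC and KITLG. At 6 months all operated libraries lay above all unoperated ones for 6 members and below them for 7, against 8.15% and 12.8% of all genes. In juveniles this held for 8 members above and 2 below, against 7.83% and 7.87% of all genes. FGF7, FGF14, NRG2 and NRG3, where they enter these counts, have a direction partly fixed by the listing.

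**Figure D1:**
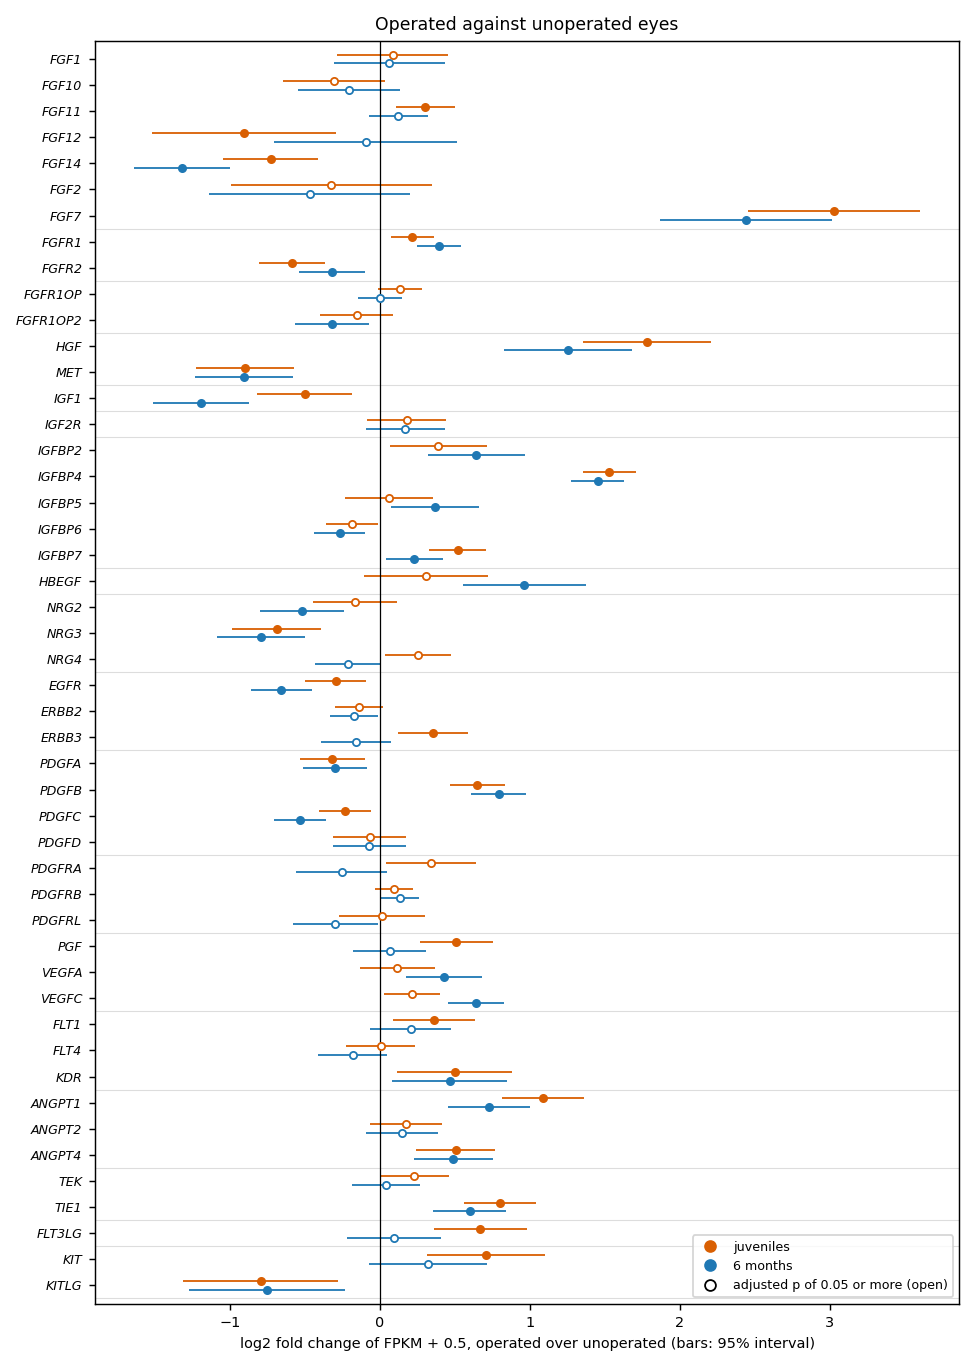
Log2 fold change of FPKM + 0.5 in operated over unoperated eyes for 48 members, in family order, in juveniles (orange, 6 operated and 7 unoperated libraries) and at 6 months (blue, 6 and 7). Bars are 95% intervals of the limma fit and filled points have an adjusted p under 0.05. IGF1R, listed at 0 in 9 libraries, is left out. FGF7, HGF and IGFBP4 lie farthest to the right at both ages, and FGF14 and IGF1 farthest to the left at 6 months.

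FGF7, also called keratinocyte growth factor, rose most of all members at both ages. FGF7 is listed through operated groups alone, so its direction is partly fixed and its rise is no independent result. At 6 months it ranged over 9.41, 14.2 and 25.6 FPKM (lowest, median, highest) in operated eyes, against 0.87, 2.73 and 4.16 FPKM in unoperated eyes. Every operated eye lay above every unoperated one. The log2 change was 2.44 ± 0.28 (limma adjusted p = 1.74e-07). In juveniles it had 6.34, 9.22 and 6.01 FPKM in operated 5-week eyes and 16.3, 14.7 and 5.28 FPKM in operated 6.5-week eyes, against 0.32, 0.58 and 1.05 FPKM (lowest, median, highest) in unoperated 5-week eyes. The ranges did not overlap, and the log2 change was 3.03 ± 0.28 (limma adjusted p = 7.21e-09).

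Its receptor gene moved the other way. FGFR2, whose epithelial splice form binds FGF7 and FGF10, fell by 0.59 ± 0.11 on the log2 scale in juveniles (limma adjusted p = 0.000103), with 17.6, 27.1 and 33.1 FPKM in operated eyes (lowest, median, highest), against 34.7, 38.2 and 51.2 FPKM in unoperated eyes. No library overlapped. At 6 months the levels were 27.1, 34.4 and 42.0 FPKM in operated eyes, against 37.0, 42.1 and 46.2 FPKM in unoperated eyes, with overlap. The log2 change there was -0.32 ± 0.11 (limma adjusted p = 0.0159). That call was lost with median-ratio scaling and without operated replicate 2 (adjusted p = 0.0958 and 0.05004), and the most abundant transcript alone gave 0.19 (adjusted p = 0.512). In juveniles the most abundant transcript alone gave -0.52 (adjusted p = 0.0675). FGFR1, the main receptor of mesenchymal cells, rose to 264 ± 31.7 FPKM in operated eyes at 6 months, against 200 ± 12.2 FPKM in unoperated eyes (SD, n = 6 and 7; log2 0.39 ± 0.07, limma adjusted p = 7.27e-05). In juveniles it averaged 244 ± 19.1 FPKM in operated eyes and 209 ± 13.5 FPKM in unoperated eyes (SD, n = 6 and 7; log2 0.22 ± 0.07, limma adjusted p = 0.0178). The juvenile call was lost without operated 5-week replicate 1 or operated 6.5-week replicate 3 (adjusted p = 0.0635 and 0.0547), and with equal sums, the top transcript, the 5-week eyes alone or no CRYAA-rich libraries (adjusted p up to 0.540).

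Other FGF genes moved less uniformly. FGF14, which belongs to the intracellular FGFs that bind sodium channels and are not secreted, fell by 1.32 ± 0.15 at 6 months and by 0.73 ± 0.15 in juveniles on the log2 scale (limma adjusted p = 2.42e-07 and 0.000575). FGF14 is listed through unoperated 6-month eyes alone, so its direction is partly fixed and its fall is no independent result. Its levels were low: 0.38, 0.485 and 0.63 FPKM in operated eyes at 6 months, against 1.53, 2.13 and 2.29 FPKM in unoperated eyes. The 6-month ranges did not overlap, while those of juveniles did, at 0.23 to 0.75 FPKM in operated and 0.71 to 1.78 FPKM in unoperated eyes. Its relative FGF12 fell in juveniles by 0.91 ± 0.30 (limma adjusted p = 0.0182) and had -0.10 ± 0.30 at 6 months, and FGF11 rose in juveniles by 0.30 ± 0.10 (limma adjusted p = 0.0146). The FGF12 call was lost without operated 6.5-week replicate 3, that of FGF11 without operated 5-week replicate 1 (adjusted p = 0.0599 and 0.0512), and both without the CRYAA-rich libraries (adjusted p = 0.116 and 0.391). Either operated age alone ended the FGF12 call (adjusted p up to 0.0748), and 5-week eyes alone or equal sums that of FGF11 (adjusted p up to 0.108). FGF1, FGF2 and FGF10, secreted ligands, passed at neither age. FGF2 had 27.0, 30.0 and 35.8 FPKM in operated eyes at 6 months, against 27.5, 46.9 and 53.9 FPKM in unoperated eyes, and 5 of 7 unoperated libraries lay above all operated ones. Its log2 change was -0.47 ± 0.32 (95% interval -1.14 to 0.20, limma adjusted p = 0.243), and a fit on the 6-month eyes alone gave the same change with an adjusted p of 0.0194. In juveniles FGF2 had -0.32 ± 0.32 (limma adjusted p = 0.458), and 0.17 without operated 6.5-week replicate 3 (adjusted p = 0.470). FGFR1OP2 fell at 6 months by 0.32 ± 0.12 (limma adjusted p = 0.0297), by 0.94 with the most abundant transcript alone, and its call was lost in 6 of 26 settings, among them without operated replicate 4 or 6 or unoperated replicate 1 or 3 (adjusted p up to 0.120).

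HGF and its receptor MET moved in opposite directions at both ages. HGF, which drives epithelial movement and repair, had 4.06, 5.57 and 6.3 FPKM in operated eyes at 6 months, against 1.59, 1.82 and 2.73 FPKM in unoperated eyes. Operated juveniles had 5.61, 6.39 and 4.56 FPKM at 5 weeks and 8.08, 7.83 and 2.5 FPKM at 6.5 weeks, against 0.65, 1.24 and 1.92 FPKM (lowest, median, highest) in unoperated eyes. No operated eye fell within the unoperated range at either age. The log2 change was 1.25 ± 0.21 at 6 months and 1.78 ± 0.21 in juveniles (limma adjusted p = 2.84e-05 and 2.80e-07). MET had 8.72, 12.2 and 18.1 FPKM in operated eyes at 6 months, against 20.2, 23.6 and 29.1 FPKM in unoperated eyes. In juveniles it had 9.85, 15.4 and 21.1 FPKM in operated eyes, against 21.4, 29.8 and 37.9 FPKM in unoperated eyes. The ranges were again apart at both ages, and MET fell by 0.91 ± 0.16 at 6 months and 0.90 ± 0.16 in juveniles on the log2 scale (limma adjusted p = 5.47e-05 and 7.08e-05). In whole tissue fewer cells of a type and less RNA per cell cannot be told apart. Markers of the ciliary epithelium moved with MET: 6 of 8 fell and 1 rose at both ages, and their summed level was 1119 to 2164 FPKM in operated eyes at 6 months, against 2177 to 3117 FPKM in unoperated eyes. Their part in the result was not tested.

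In the IGF family the ligand IGF1 fell while IGFBP4 and IGFBP7 rose at both ages. IGF1, made by many stromal cells and acting in growth and survival, had 59.5, 67.7 and 77.1 FPKM in operated eyes at 6 months, against 112, 163 and 185 FPKM in unoperated eyes. All 6 operated libraries lay below all 7 unoperated ones, and the log2 change was -1.19 ± 0.15 (limma adjusted p = 1.16e-06). In juveniles IGF1 had 107, 103 and 105 FPKM in operated 5-week eyes and 164, 126 and 76.7 FPKM in operated 6.5-week eyes, against 111, 164 and 205 FPKM (lowest, median, highest) in unoperated eyes. The 5-week operated eyes lay just below the unoperated range and 2 operated 6.5-week eyes within it. The log2 change was -0.50 ± 0.15 (limma adjusted p = 0.0127), and it was -0.35 without operated 6.5-week replicate 3 (adjusted p = 0.0580). The juvenile call was also lost with the top transcript, with 6.5-week eyes alone and without the CRYAA-rich libraries (adjusted p = 0.0672, 0.0903 and 0.0741).

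IGFBP4, an inhibitor of IGF action that pappalysin proteases cleave, had the smallest p of all members. At 6 months it had 412, 536 and 617 FPKM in operated eyes, against 164, 186 and 215 FPKM in unoperated eyes. In juveniles it had 457, 499 and 451 FPKM in operated 5-week eyes and 591, 525.6 and 698 FPKM in operated 6.5-week eyes, against 165, 184 and 204 FPKM (lowest, median, highest) in unoperated eyes. The lowest operated eye lay far above the highest unoperated one at either age. The log2 change was 1.45 ± 0.08 at 6 months and 1.53 ± 0.08 in juveniles (limma adjusted p = 2.15e-12 and 8.40e-13), and this call held in every alternative tried at both ages.

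The other binding proteins moved less. IGFBP2 rose at 6 months, with 271, 380 and 505 FPKM in operated eyes, against 142, 258 and 300 FPKM in unoperated eyes (log2 0.64 ± 0.16, limma adjusted p = 0.00170). Its juvenile change was 0.39 ± 0.16 (limma adjusted p = 0.0527). IGFBP7, which binds IGFs weakly and is abundant in vessels, rose by 0.52 ± 0.09 in juveniles and 0.23 ± 0.09 at 6 months (limma adjusted p = 0.000106 and 0.0469), and by 0.32 with operated 5-week eyes alone. IGFBP5 rose at 6 months by 0.37 ± 0.14 and IGFBP6, which prefers IGF2, fell there by 0.27 ± 0.08 (limma adjusted p = 0.0372 and 0.0105). The 6-month call of IGFBP7 was lost in 15 of 26 settings, among them 9 of the 13 that leave out 1 library: operated replicate 1, 2, 4 or 5 or unoperated replicate 2, 3, 5, 6 or 7 (adjusted p up to 0.123). That of IGFBP5 was lost in 8, among them without operated replicate 3 or 4 or unoperated replicate 1, 4 or 7 (adjusted p up to 0.124 there), and that of IGFBP6 with median-ratio scaling (adjusted p = 0.0929).

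The IGF receptors gave no call after surgery. IGF2R, the mannose 6-phosphate receptor that sorts lysosomal enzymes and clears IGF2, had log2 changes of 0.17 ± 0.13 at 6 months and 0.18 ± 0.13 in juveniles (limma adjusted p = 0.290 and 0.292). IGF1R, which carries the IGF1 signal, is listed at 0 in 9 of 26 libraries while its other values reach 9.63 FPKM, so no mean or fold is given. It had 0 in all 3 operated 5-week eyes and 0, 2.36 and 9.63 FPKM in operated 6.5-week eyes, against 6.06, 0, 0.11, 9.44, 0, 0 and 1.4 FPKM in unoperated 5-week eyes. At 6 months it had 8.56, 7.72, 4.35, 3.67, 4.42 and 7.11 FPKM in operated eyes, against 2.35, 5.76, 0, 4.68, 4.43, 0 and 6.02 FPKM in unoperated eyes. A zero of this kind can be a failed estimate of 1 transcript model.

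**Figure D2:**
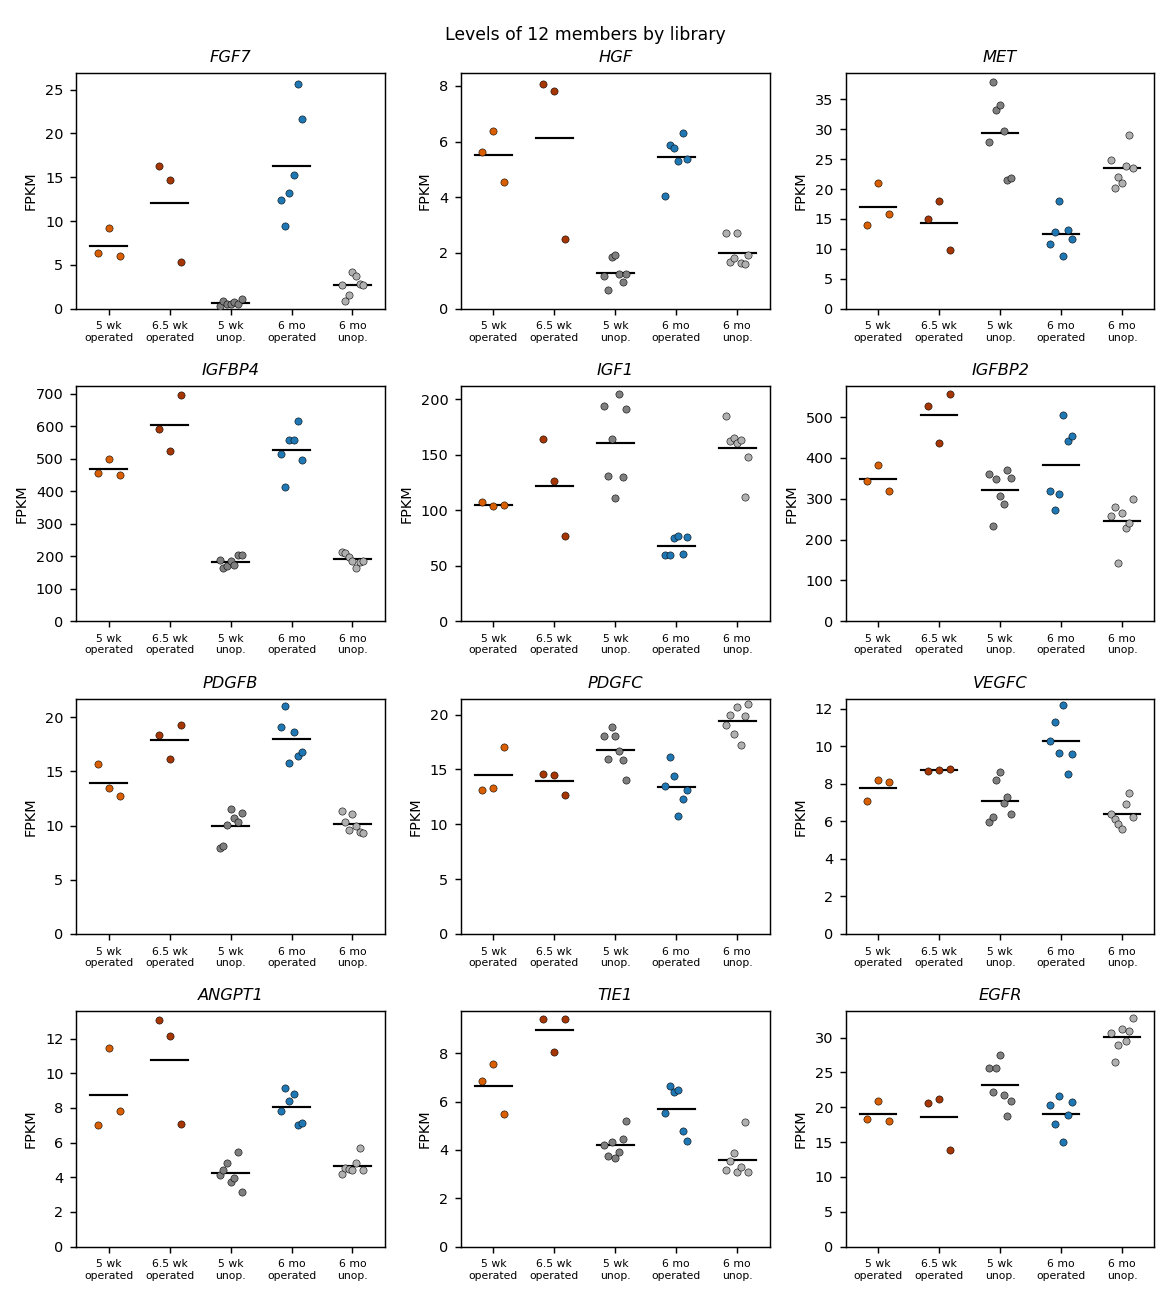
FPKM of 12 members in each library, by group, with operated juveniles of 5 and 6.5 weeks left of unoperated 5-week eyes and operated left of unoperated eyes at 6 months. Points are libraries and lines are group means. IGFBP4, FGF7, HGF, PDGFB and ANGPT1 show no overlap between operated and unoperated eyes at either age, and the lowest operated 6.5-week point of HGF, 2.5 FPKM, is replicate 3.

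HBEGF and EGFR moved in opposite directions at 6 months, while EGF, which is no member and is described with the other growth factors, fell with EGFR. HBEGF, a membrane-bound EGF receptor ligand that is released by proteases in wounds, rose at 6 months, with 2.87, 3.71 and 4.74 FPKM in operated eyes, against 0.63, 1.77 and 2.9 FPKM in unoperated eyes. The ranges met by 1 library of each group, and the log2 change was 0.96 ± 0.20 (limma adjusted p = 0.000380). In juveniles it was 0.31 ± 0.20 (95% interval -0.10 to 0.72, limma adjusted p = 0.238). EGFR, its receptor, had 15.0, 19.6 and 21.6 FPKM in operated eyes at 6 months, against 26.5, 30.7 and 32.9 FPKM in unoperated eyes. Those ranges were apart, and EGFR fell by 0.66 ± 0.10 on the log2 scale (limma adjusted p = 1.01e-05), a call lost when the most abundant transcript alone was used (adjusted p = 0.0950).

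In juveniles EGFR had 13.9, 19.4 and 21.2 FPKM in operated eyes, against 18.7, 22.2 and 27.5 FPKM in unoperated eyes, with overlap. It fell by 0.30 ± 0.10 (limma adjusted p = 0.0217). That call was lost in 7 of 28 settings: without operated 5-week replicate 3, operated 6.5-week replicate 3 or unoperated replicate 4 (adjusted p = 0.0512, 0.0939 and 0.0516), and with the top transcript, 5-week eyes alone, the juvenile groups alone or no CRYAA-rich libraries (adjusted p up to 0.178). ERBB2, the partner receptor with no ligand of its own, did not pass (log2 -0.18 ± 0.08 at 6 months and -0.14 ± 0.08 in juveniles, limma adjusted p = 0.0664 and 0.163). ERBB3, which binds neuregulins, rose in juveniles by 0.35 ± 0.11 (limma adjusted p = 0.0158), a call lost in 6 of 28 settings, among them without operated 6.5-week replicate 1 (adjusted p = 0.0508).

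Of the neuregulins NRG3 fell at both ages and NRG2 at 6 months, both at low levels, and NRG4, at 8.23 FPKM on average, was not called. NRG2 and NRG3 are listed through unoperated groups alone, so their falls are no independent results. NRG3 had 0.98, 1.48 and 2.13 FPKM in operated eyes at 6 months, against 2.12, 2.79 and 3.77 FPKM in unoperated eyes, where 1 operated library lay just above the lowest unoperated one. The log2 change was -0.79 ± 0.14 at 6 months and -0.69 ± 0.14 in juveniles (limma adjusted p = 8.48e-05 and 0.000483). The juvenile call was lost with operated 5-week eyes alone (adjusted p = 0.0554). NRG2 fell at 6 months by 0.52 ± 0.14, with 0.27 to 1.11 FPKM in operated eyes, against 1.13 to 1.44 FPKM in unoperated eyes (limma adjusted p = 0.00300). NRG4 had -0.22 ± 0.11 at 6 months and 0.25 ± 0.11 in juveniles (limma adjusted p = 0.0977 and 0.0641).

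The PDGF ligands split by gene. PDGFB, which recruits pericytes to vessels, had 15.8, 17.7 and 21.1 FPKM in operated eyes at 6 months, against 9.31, 9.96 and 11.4 FPKM in unoperated eyes. In juveniles it had 15.7, 13.4 and 12.7 FPKM in operated 5-week eyes and 18.3, 16.1 and 19.3 FPKM in operated 6.5-week eyes, against 7.89, 10.3 and 11.5 FPKM (lowest, median, highest) in unoperated eyes. Every operated eye exceeded every unoperated one. PDGFB rose by 0.79 ± 0.09 at 6 months and 0.65 ± 0.09 in juveniles on the log2 scale (limma adjusted p = 1.35e-07 and 3.12e-06), under all alternatives.

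PDGFC, a ligand of PDGFRA, had 10.8, 13.3 and 16.2 FPKM in operated eyes at 6 months, against 17.2, 19.9 and 20.9 FPKM in unoperated eyes, with no overlap, and it fell by 0.53 ± 0.08 (limma adjusted p = 1.79e-05). In juveniles it fell by 0.23 ± 0.08 (limma adjusted p = 0.0311). PDGFA fell by 0.30 ± 0.10 at 6 months and 0.32 ± 0.10 in juveniles (limma adjusted p = 0.0211 and 0.0186). PDGFD passed at neither age (log2 -0.07 ± 0.12 at both). Neither the receptors PDGFRA and PDGFRB nor PDGFRL, which is receptor-like by name, passed. PDGFRB had 0.13 ± 0.06 at 6 months and 0.09 ± 0.06 in juveniles (limma adjusted p = 0.0806 and 0.249). The juvenile call of PDGFC was lost in 11 of 28 settings, among them without operated 5-week replicate 1 or 2, operated 6.5-week replicate 3 or unoperated replicate 1, 3 or 4 (adjusted p up to 0.0854 there). PDGFA lost its 6-month call in 6 of 26, among them without operated replicate 1 or 3 or unoperated replicate 1, and its juvenile call in 3 of 28, among them without operated 6.5-week replicate 2 (adjusted p up to 0.0708 there).

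Vessel growth factors rose in part. VEGFC, the main ligand for lymphatic vessels, had 8.53, 9.95 and 12.2 FPKM in operated eyes at 6 months, against 5.57, 6.23 and 7.52 FPKM in unoperated eyes. The ranges were apart, and the log2 change was 0.64 ± 0.09 (limma adjusted p = 3.64e-06). In juveniles VEGFC had 0.21 ± 0.09 (limma adjusted p = 0.0678). VEGFA, the chief vessel growth factor, had 23.8, 27.5 and 35.1 FPKM in operated eyes at 6 months, against 16.5, 21.2 and 27.9 FPKM in unoperated eyes, with overlap. It rose by 0.43 ± 0.12 there (limma adjusted p = 0.00621, and 0.0520 with equal sums), while the juvenile change was 0.12 ± 0.12 (95% interval -0.14 to 0.37, limma adjusted p = 0.483). PGF, a ligand of FLT1, rose in juveniles, with 7.5 to 11.6 FPKM in operated eyes, against 5.44 to 6.87 FPKM in unoperated eyes. Its ranges were apart there (log2 0.51 ± 0.12, limma adjusted p = 0.00146), whereas the 6-month change was 0.06 ± 0.12 (limma adjusted p = 0.682). The top transcript or removal of CRYAA-rich libraries ended the PGF call (adjusted p = 0.0602 and 0.0522).

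Of the VEGF receptors, KDR, which carries most of the vessel signal, rose by 0.47 ± 0.19 at 6 months and 0.50 ± 0.19 in juveniles (limma adjusted p = 0.0437 and 0.0381). Its levels overlapped at both ages, at 5.57 to 15.9 FPKM in operated and 5.07 to 10.9 FPKM in unoperated eyes at 6 months. FLT1 rose in juveniles by 0.36 ± 0.13 (limma adjusted p = 0.0340), and FLT4, the VEGFC receptor, had -0.18 ± 0.11 at 6 months and 0.01 ± 0.11 in juveniles (limma adjusted p = 0.184 and 0.975). Leaving out 1 library ended the KDR calls in 9 of 13 cases at each age and the FLT1 call in 8 of 13 (adjusted p up to 0.132, 0.110 and 0.111). At 6 months these were operated replicates 1 to 5 and unoperated replicates 1, 2, 4 and 7. In juveniles operated 5-week replicates 2 and 3 and operated 6.5-week replicates 1 and 2 ended both calls, as did unoperated replicates 1 to 4 and 6 for KDR and 2, 3, 4 and 7 for FLT1.

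The angiopoietin pathway steadies vessels. ANGPT1, the activating ligand of TEK, had 7.01, 8.1 and 9.13 FPKM in operated eyes at 6 months, against 4.21, 4.48 and 5.71 FPKM in unoperated eyes. Levels in juveniles were 7.01, 11.5 and 7.84 FPKM in operated 5-week eyes and 13.1, 12.1 and 7.05 FPKM in operated 6.5-week eyes, against 3.14, 4.14 and 5.45 FPKM (lowest, median, highest) in unoperated eyes. No range overlapped. ANGPT1 rose by 0.73 ± 0.13 at 6 months and 1.09 ± 0.13 in juveniles (limma adjusted p = 9.16e-05 and 5.43e-07), under all alternatives. ANGPT4, another TEK ligand, rose by 0.49 ± 0.13 and 0.50 ± 0.13 (limma adjusted p = 0.00332 at 6 months and 0.00324 in juveniles), and lost both calls without the CRYAA-rich libraries (adjusted p = 0.0671 and 0.0897). ANGPT2, which can block TEK, had 0.15 ± 0.12 at 6 months and 0.17 ± 0.12 in juveniles (limma adjusted p = 0.312 and 0.255).

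TIE1, the partner receptor of TEK on endothelium, had 4.36, 5.97 and 6.65 FPKM in operated eyes at 6 months, against 3.07, 3.28 and 5.17 FPKM in unoperated eyes, with overlap. Juvenile levels were 5.51, 7.8 and 9.43 FPKM in operated eyes, against 3.68, 4.22 and 5.21 FPKM in unoperated eyes, with no overlap. TIE1 rose by 0.60 ± 0.12 at 6 months and 0.80 ± 0.12 in juveniles (limma adjusted p = 0.000207 and 7.78e-06). TEK itself passed at neither age (log2 0.04 ± 0.11 at 6 months and 0.23 ± 0.11 in juveniles, limma adjusted p = 0.802 and 0.107), but without operated 6.5-week replicate 3 the juvenile change was 0.32 (adjusted p = 0.0250). Endothelial markers moved with these genes. Of 12 measured 9 rose and 1 fell at 6 months and 7 rose and 1 fell in juveniles, and their summed level was 301 to 498 FPKM in operated eyes at 6 months, against 221 to 261 FPKM in unoperated eyes. In juveniles it was 350 to 417 FPKM in operated 5-week and 402 to 482 FPKM in operated 6.5-week eyes, against 204 to 246 FPKM in unoperated 5-week eyes. Their part in these results was not tested.

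KIT ligand and FLT3 ligand act on melanocytes, mast cells and blood cell lineages. KITLG had 3.74, 5.41 and 6.15 FPKM in operated eyes at 6 months, against 6.8, 9.24 and 11.6 FPKM in unoperated eyes, with no overlap. It fell by 0.75 ± 0.25 at 6 months and 0.80 ± 0.25 in juveniles (limma adjusted p = 0.0170 and 0.0149). Without operated 6.5-week replicate 3 the juvenile change was -0.42 (adjusted p = 0.0344). Both calls were lost without the CRYAA-rich libraries (adjusted p = 0.0628 and 0.103). The juvenile call was also lost with 5-week eyes alone, on the juvenile groups alone and without the late-numbered 5-week animals (adjusted p up to 0.190). KIT, its receptor, rose in juveniles, with 1.96, 3.18 and 4.53 FPKM in operated eyes, against 1.33, 1.68 and 2.15 FPKM in unoperated eyes (log2 0.71 ± 0.19, limma adjusted p = 0.00500, and 0.178 with 5-week eyes alone). FLT3LG, which feeds dendritic cells, rose in juveniles by 0.67 ± 0.15 (limma adjusted p = 0.00113) and had 0.09 ± 0.15 at 6 months (limma adjusted p = 0.637). The FLT3LG call was lost with 6.5-week eyes alone and without the CRYAA-rich libraries (adjusted p = 0.0508 and 0.0935). All 8 pigment cell markers fell at 6 months and 7 of 8 in juveniles, and all 9 measured macrophage markers rose at both ages. Summed, pigment markers held 1242 to 1815 FPKM in operated eyes at 6 months, against 2062 to 2575 FPKM in unoperated eyes, and macrophage markers 264 to 674 FPKM in operated eyes, against 75.4 to 212 FPKM in unoperated eyes. Their part in these results was not tested.

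Whether surgery acted differently at the 2 ages was tested as an interaction. No member passed, while 141 of all genes did, or 1.09%, 0.734% with a positive and 0.355% with a negative difference, and 12 members and 1669 genes had an unadjusted p under 0.05. The smallest adjusted p was that of VEGFC, whose surgery effect was 0.43 ± 0.13 larger on the log2 scale at 6 months than in juveniles (95% interval 0.17 to 0.69, limma adjusted p = 0.118). ERBB3 followed with -0.51 ± 0.16 and IGF1 with -0.69 ± 0.22 (limma adjusted p = 0.135 and 0.146). Without operated 6.5-week replicate 3, the IGF1 and ERBB3 differences were -0.84 and -0.61 (adjusted p = 0.0277 and 0.0309). A p above the threshold does not show that both ages respond alike: for FGF7 the interval of the difference was -1.40 to 0.22, and for MET -0.46 to 0.45.

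Operated 6.5-week eyes were set against operated 5-week eyes, 3 libraries each. No member passed, 2 of all genes did, or 0.0154%, 1 higher and 1 lower (0.00772% each), and 13 members and 1339 genes had an unadjusted p under 0.05. NRG4 came nearest, with 6.95, 7.87 and 7.58 FPKM in operated 6.5-week eyes, against 9.85, 11.6 and 10.7 FPKM in operated 5-week eyes. The ranges were apart, and the log2 change was -0.49 ± 0.16 (limma adjusted p = 0.308). Ranges of IGFBP4 were apart as well, with 525.6 to 698 FPKM at 6.5 weeks, against 451 to 499 FPKM at 5 weeks. Its log2 change was 0.36 ± 0.12 (limma adjusted p = 0.352). The share of all genes with ranges apart was not counted for these groups of 3, so neither gap is read as a difference.

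Age was compared next, at 6 months against juvenile eyes, first without surgery. In unoperated eyes 10 of 49 members rose and 4 fell at 6 months, or 28.6%, where 20.8% of all genes were called, 11.4% higher and 9.46% lower. Ranges were apart for 2 members above and 2 below, against 4.26% and 3.99% of all genes. As deposited, 1471 genes were higher and 1225 lower, but 875 and 1652 with equal sums, where 6 members were higher and 5 lower. VEGFA had 16.5, 21.2 and 27.9 FPKM at 6 months (lowest, median, highest), against 27.8, 31.6 and 50.2 FPKM at 5 weeks. The ranges met by 1 library of each group, and VEGFA fell by 0.65 ± 0.12 on the log2 scale (limma adjusted p = 0.000408). Its receptor KDR fell as well, by 0.55 ± 0.18 (limma adjusted p = 0.0297), with 5.07, 6.57 and 10.9 FPKM at 6 months, against 9.26, 10.6 and 14.4 FPKM at 5 weeks, with overlap. IGF2R had 5.16, 6.52 and 7.13 FPKM at 6 months, against 9.26, 10.49 and 13.2 FPKM at 5 weeks, with no overlap, and it fell by 0.74 ± 0.12 (limma adjusted p = 0.000168). PDGFRB, the receptor of pericytes and smooth muscle, had 50.8, 58.1 and 62.6 FPKM at 6 months, against 65.3, 70.9 and 78.4 FPKM at 5 weeks. These ranges were also apart, and PDGFRB fell by 0.32 ± 0.06 (limma adjusted p = 0.000455, and 0.0660 without the CRYAA-rich libraries).

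The 10 members that rose with age in unoperated eyes were FGF7, FGF10, FGF14, FLT3LG, NRG2, NRG3, IGFBP6, EGFR, ERBB3 and PDGFRL. FGF14 and NRG2 are listed through the older unoperated eyes alone, so their rise is no independent result. FGF7 rose most, by 1.36 ± 0.27 (limma adjusted p = 0.000868), with 0.87, 2.73 and 4.16 FPKM at 6 months, against 0.32, 0.58 and 1.05 FPKM at 5 weeks. IGFBP6 had 249, 278 and 326 FPKM at 6 months, against 179, 224 and 231 FPKM at 5 weeks, with no overlap (log2 0.43 ± 0.08, limma adjusted p = 0.000466). EGFR rose by 0.38 ± 0.10 and FGF10, a stromal ligand of epithelial FGFR2, by 0.47 ± 0.16 (limma adjusted p = 0.00661 and 0.0369). FLT3LG and NRG3 rose by 0.62 ± 0.15 and 0.51 ± 0.14 (limma adjusted p = 0.00378 and 0.0102). Without the CRYAA-rich libraries the calls of FLT3LG, FGF14, NRG3 and EGFR were lost (adjusted p up to 0.272). Of the 14 age calls, 4 held in every setting: FGF7, IGF2R, IGFBP6 and VEGFA. Leaving out 1 library ended those of ERBB3, FGF10, KDR, NRG2 and PDGFRL, in 2, 8, 6, 7 and 2 of 14 cases (adjusted p up to 0.0559, 0.0841, 0.0715, 0.0677 and 0.0553).

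In operated eyes the 6-month group was set against the mean of the operated 5-week and 6.5-week groups. By limma 5 members rose and 8 fell, or 26.5%, where 15.7% of all genes were called, 5.88% higher and 9.78% lower. The count of 5 includes IGF1R, which is listed through operated 6-month eyes alone and has zeros in operated juveniles, so it is no independent result. Ranges were apart for 0 members above and 2 below, PDGFRB and FGFR1OP, against 1.31% and 3.47% of all genes. As deposited, 761 genes were higher and 1266 lower, but 1151 and 1071 with median-ratio scaling and 329 and 1996 with equal sums, where members were 6 higher and 6 lower, and 1 higher and 11 lower. IGF1 fell by 0.71 ± 0.16 (limma adjusted p = 0.00378), with 59.5 to 77.1 FPKM in operated 6-month eyes, against 76.7 to 164 FPKM in operated juveniles. Those ranges touched at operated 6.5-week replicate 3, and the call was lost with the top transcript (adjusted p = 0.345). In unoperated eyes the IGF1 change with age was -0.02 ± 0.15 (limma adjusted p = 0.947). IGF2R and PDGFRB fell by 0.75 ± 0.13 and 0.28 ± 0.06, and IGFBP6 rose by 0.35 ± 0.09 (limma adjusted p = 0.000469, 0.00378 and 0.00698). IGF2R, PDGFRB and KDR fell and IGFBP6 and FGF10 rose with age in both kinds of eyes. Of the 13 calls 1 held in every setting, that of IGF2R, and leaving out 1 library ended 8, those of FGF10, FGFR2, FLT1, IGF1R, KDR, PDGFRA, TIE1 and VEGFC (adjusted p up to 0.134). FGFR1OP fell by 0.28 ± 0.07 (limma adjusted p = 0.0113), with 5.72 to 7.7 FPKM in operated 6-month eyes, against 7.76 to 8.56 FPKM in operated juveniles.

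**Figure D3:**
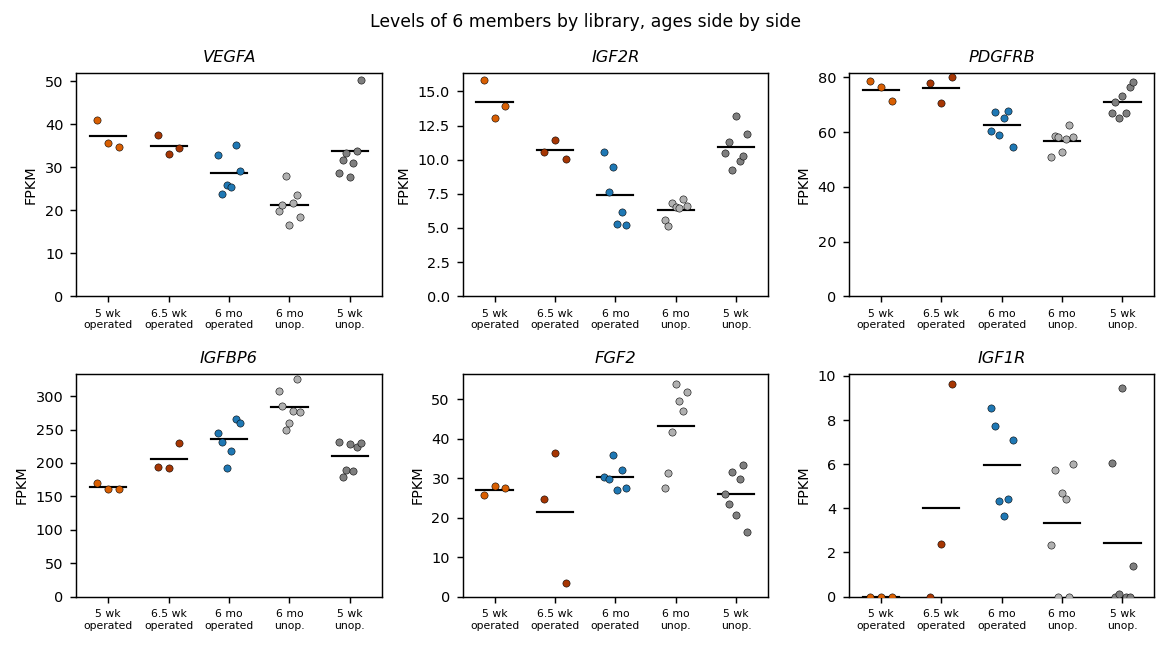
FPKM of 6 members in each library, with operated eyes of 5 weeks, 6.5 weeks and 6 months on the left of each panel and unoperated eyes of 6 months and 5 weeks on the right. Points are libraries and lines are group means. IGF2R and PDGFRB are lower at 6 months in unoperated eyes with no overlap, the lowest FGF2 point is operated 6.5-week replicate 3 at 3.37 FPKM, and IGF1R is listed at 0 in 9 libraries.

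Of the members 16 have more than 1 listed transcript. FGFR1 has 7 variants. Variant X2, the most abundant, made up 45.6 ± 3.71% in operated eyes at 6 months, against 46.0 ± 4.69% in unoperated eyes (SD, n = 6 and 7). In juveniles it made up 42.0 ± 4.93% in operated 5-week and 37.8 ± 2.38% in operated 6.5-week eyes, against 43.4 ± 5.19% in unoperated eyes (SD, n = 3, 3 and 7). The minor variant X4 of FGFR1 made up 9.07 ± 1.49% in operated 5-week and 6.95 ± 0.844% in operated 6.5-week eyes, against 5.59 ± 1.33% in unoperated eyes. IGF1 has 3 variants, of which X4 made up 82.2 ± 8.31% in operated eyes at 6 months, against 71.0 ± 4.67% in unoperated eyes. In juveniles its share was 72.2 ± 3.06% in operated 5-week and 55.5 ± 16.7% in operated 6.5-week eyes, against 61.7 ± 6.24% in unoperated eyes. FGFR2 shares spread widely: X8 made up 38.5 ± 6.62% in operated eyes at 6 months, against 27.2 ± 7.49% in unoperated eyes. FGFR1OP2 variant X4 made up 41.8 ± 10.4% in operated eyes at 6 months, against 64.4 ± 8.42% in unoperated eyes. Transcripts of 1 gene share most of their sequence, so how fragments were divided among them is uncertain, and no test was made on the shares.

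**Figure D4:**
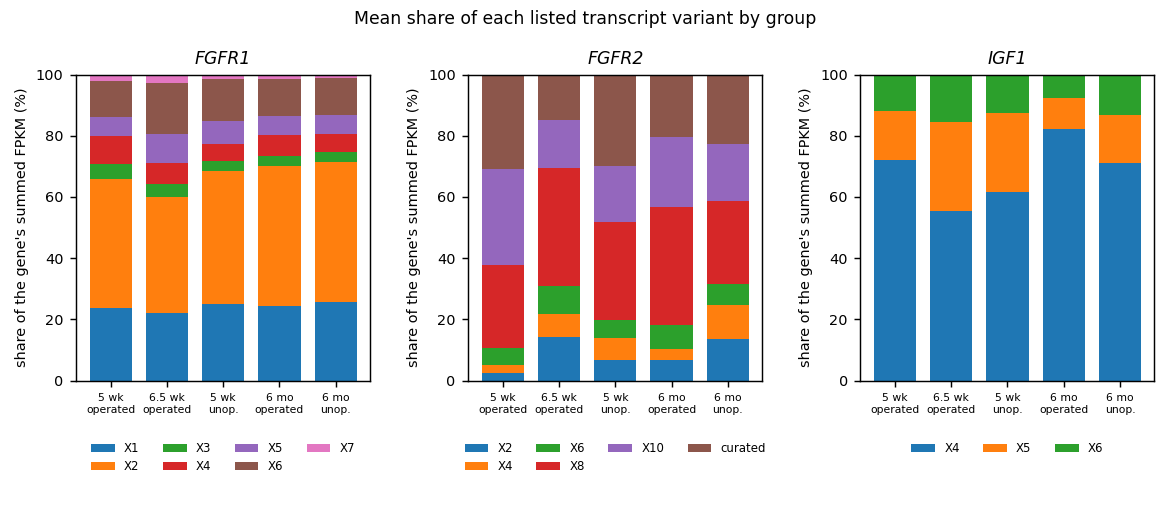
Mean share, in percent, of each listed transcript variant in the summed FPKM of FGFR1, FGFR2 and IGF1, by group (3, 3, 7, 6 and 7 libraries), with operated left of unoperated eyes at each age. FGFR1 variant X2 stays between 37.8% and 46.0%, and IGF1 variant X4 lies between 55.5% and 82.2%.

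Genes that can act downstream of the receptors were taken from fixed lists. The lists were chosen with earlier results of these data known, so their shares are no independent result. Whether the receptors drive these genes was not tested. ERK response and feedback genes rose in most cases: 15 of 21 rose and 1 fell at 6 months, and 12 rose and 4 fell in juveniles. This is 76.2% called at both ages, against 46.1% and 37.3% of all genes, with median log2 changes of 1.003 at 6 months and 0.70 in juveniles, against -0.11 and -0.06 over all genes. IER3, an early survival gene, averaged 120 ± 31.9 FPKM in operated eyes at 6 months and 10.9 ± 1.88 FPKM in unoperated eyes (SD, n = 6 and 7). DUSP4, a phosphatase that shuts off ERK, averaged 4.58 ± 1.22 FPKM in operated and 0.717 ± 0.277 FPKM in unoperated eyes of that age. MYC, which drives cell growth, averaged 17.6 ± 4.29 FPKM in operated and 3.33 ± 0.589 FPKM in unoperated eyes. On the log2 scale IER3, MYC and DUSP4 rose by 3.38, 2.23 and 2.06 at 6 months and by 3.39, 1.88 and 1.73 in juveniles (limma adjusted p up to 1.75e-08). Members of the same list fell, namely the feedback inhibitor SPRY1 at 6 months (log2 -0.37) and, in juveniles, the transcription factors ETV5 and ETV4 and the feedback inhibitors SPRY2 and SPRED2 (log2 -0.62, -0.47, -0.39 and -0.37, limma adjusted p up to 0.0252). ETV4 rose at 6 months by 0.56, a call lost in 0 of 25 settings. Its juvenile call was lost in 5 of 27 settings, among them without operated 5-week replicate 3 or operated 6.5-week replicate 1 (adjusted p up to 0.311). In the interaction 2 of the 21 genes passed, both with a positive difference (9.52%, against 1.09% of all genes). Without the CRYAA-rich libraries the juvenile count was 7 higher and 4 lower, and leaving out any 1 library gave 11 to 13 higher and 3 to 5 lower.

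Adaptors link receptors to Ras. Of 23 adaptor and Ras genes 1 rose and 8 fell at 6 months, and 1 rose and 5 fell in juveniles. The shares called, 39.1% and 26.1%, lay below the 46.1% and 37.3% of all genes. Of all genes 30.1% fell at 6 months and 20.8% in juveniles. The adaptor gene that rose was SHC1, an adaptor of activated receptors (log2 0.61 at 6 months and 0.60 in juveniles, limma adjusted p = 1.78e-07 and 2.99e-07). PIK3R1, the regulatory subunit of PI3 kinase, fell by 1.03 at 6 months and 0.79 in juveniles (limma adjusted p = 3.33e-08 and 2.31e-06). With equal sums 15 adaptor genes fell at 6 months. In the kinase cascade 3 of 13 rose and 3 fell at 6 months, and 2 rose and 2 fell in juveniles. The shares called were 46.2% and 30.8%, against 46.1% and 37.3% of all genes, so the list did not stand out. The largest rise in it was that of the ERK scaffold KSR1, at 1.32 and 1.11 (limma adjusted p = 7.48e-09 and 1.62e-07). Of 14 receptor brakes 4 rose and 2 fell at 6 months, and 6 rose and 1 fell in juveniles. The shares called were 42.9% and 50%, against 46.1% and 37.3% of all genes. ERRFI1, an inhibitor of EGFR, rose by 2.98 at 6 months and 2.18 in juveniles (limma adjusted p = 7.43e-10 and 1.54e-07).

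Of 11 proteases and helpers that free growth factors 7 rose and 2 fell at 6 months, and 8 rose and 2 fell in juveniles (81.8% and 90.9% called, against 46.1% and 37.3% of all genes). ADAM15 and the proprotein convertase FURIN rose by 0.53 and 0.50 at 6 months and by 0.46 and 0.45 in juveniles, while PCSK6 fell by 0.62 at 6 months and 1.08 in juveniles (limma adjusted p up to 0.000749). Of 8 genes that cleave IGF binding proteins or inhibit that cleavage 5 rose and 1 fell at 6 months. In juveniles 2 rose and 1 fell. The shares called were 75% and 37.5%, the juvenile share close to that of all genes. Leaving out any 1 library gave 3 to 5 higher and 1 lower at 6 months. HTRA1, a protease of IGF binding proteins, rose by 0.84 and 0.75 on the log2 scale (limma adjusted p = 2.21e-06 at 6 months and 1.26e-05 in juveniles). STC1, an inhibitor of pappalysin, rose by 1.19 at 6 months (limma adjusted p = 2.61e-07) and had 0.17 in juveniles (adjusted p = 0.353), and STC2, of the same family, fell by 0.38 at 6 months and 0.65 in juveniles (limma adjusted p up to 0.00585, and 0.0606 at 6 months without the CRYAA-rich libraries). Of 12 co-receptors and heparan sulfate carriers 4 rose and 5 fell at 6 months, and 3 rose and 4 fell in juveniles. The shares called were 75% and 58.3%, against 46.1% and 37.3% of all genes. At 6 months 2 to 4 of these genes were higher and 4 to 5 lower when any 1 library was left out. The hyaluronan receptor CD44 rose by 1.78 at 6 months and 1.63 in juveniles (limma adjusted p up to 5.19e-10).

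Of 17 other growth factors, a list that holds EGF, 8 rose and 5 fell at 6 months, and 7 rose and 3 fell in juveniles (76.5% and 58.8% called, against 46.1% and 37.3% of all genes). LIF and CTGF rose by 2.99 and 2.23 at 6 months and by 2.36 and 1.5 in juveniles, while EGF, the founding ligand of EGFR, fell by 0.89 at 6 months and 0.97 in juveniles (limma adjusted p up to 6.99e-05). EGF averaged 3.32 ± 1.13 FPKM in operated eyes at 6 months and 6.34 ± 0.341 FPKM in unoperated eyes (SD, n = 6 and 7). Of 20 other receptor tyrosine kinases 5 rose and 4 fell at 6 months, and 6 rose and 3 fell in juveniles, 45% at both ages and so near the share of all genes at 6 months. NTRK2, the receptor of the nerve factor BDNF, fell by 1.57 at 6 months and 1.65 in juveniles, and CSF1R, the receptor that sustains macrophages, rose by 1.07 at 6 months and 1.70 in juveniles (limma adjusted p up to 4.69e-05). CSF1R is also 1 of the 9 macrophage markers, all of which rose at both ages, and their part in the other list counts was not tested. Of 19 hypoxia genes 6 rose and 4 fell at 6 months, and 6 rose and 3 fell in juveniles. The shares called were 52.6% and 47.4%, against 46.1% and 37.3% of all genes. HIF1A, EPAS1 and NDRG1 rose by 1.71, 1.21 and 1.2 at 6 months and by 1.38, 0.65 and 1.59 in juveniles (limma adjusted p up to 2.84e-06), while PDK1, which HIF1A induces, fell by 0.44 at 6 months and 0.32 in juveniles (limma adjusted p = 0.000132 and 0.00377, and 0.0664 in juveniles without the CRYAA-rich libraries).

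**Figure D5:**
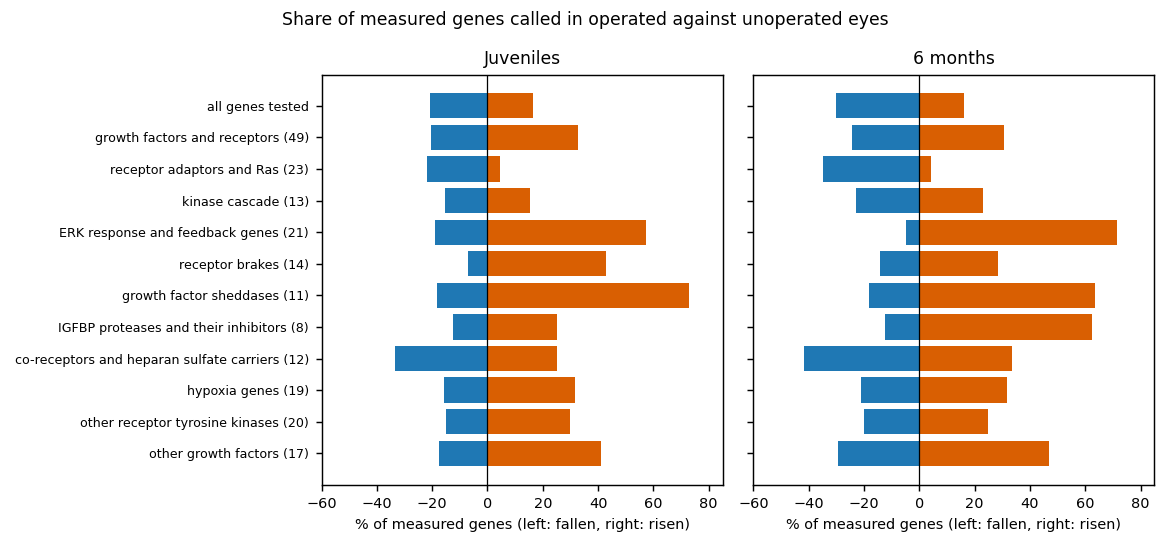
Share of measured genes in each fixed list that rose (right, orange) or fell (left, blue) in operated against unoperated eyes, in juveniles and at 6 months, with the number measured in brackets. Called genes have a limma adjusted p under 0.05. The ERK response and feedback list has 15 of 21 genes higher at 6 months and 12 of 21 in juveniles, where all genes have 16% and 16.5%.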

How the data were processed

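Iris and ciliary body RNA of 26 rabbit eyes was measured. The authors deposited FPKM per RefSeq transcript and library, per the file headers, with 16725 transcripts and 1.133% of values at 0. RSEM 1.2.12, Bowtie2 2.2.5, HISAT and HISAT2 2.0.4 appear, without roles, per the submitters' processing notes, with the genome build not given in the sources used here. FPKM is relative within a library, so very abundant transcripts lower all others, and without counts the depth is unknown and no counting interval is given. Paralogous or antisense reads could not be separated further.

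FPKM were summed per deposited symbol and analysed as log2(FPKM + 0.5) by limma 3.58.1 (R 4.3.3), fitting a mean for each of the 5 groups across all 26 libraries, with mean-variance trend, robust moderation and Benjamini-Hochberg adjustment over 12948 genes. A filter of 1 FPKM in at least 3 libraries removed 0 genes. The 23 cornea samples are not analysed here. The procedure was also run on simulated log values with the means and spreads of these data. The outcome is not given here, so it lends no weight to the calls. Members and lists were chosen with earlier results of these data known. Every member may be named at any p, and of each list up to 4 genes with the smallest p per comparison and all of a sign where 5 or fewer were called. Alternatives were other pseudocounts, filters, scalings, moderation, transcript choice and covariates, each operated age alone, and each library left out. "Late-numbered" 5-week animals are the 3 whose label numbers follow those of the 6-month animals.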

Additional observations from a re-analysis of the deposited data

Results flagged for a closer look

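Within groups of 6 or 7 libraries, 9 of 147 tests of a member in a group found 1 library farther from the rest than Dixon's 95% limit, and chance gives about 1 in 20. In unoperated 6-month eyes, replicate 3 was low in ERBB2 (23.2 FPKM, the next 26.5) and IGFBP2 (141.8, the next 229.4) and high in FLT4 (6.68, the next 5.43). Replicate 5 of that group was low in HBEGF at 0.63 FPKM, the next library having 1.66. Operated 6-month replicate 3 was low in PGF at 5.41 FPKM, and operated 6-month replicate 2 was high in TEK at 20.4 FPKM. In unoperated 5-week eyes replicate 4 was low in FGFR1OP2 at 22.7 FPKM, replicate 6 high in FLT3LG at 4.48 FPKM, and replicate 7 high in VEGFA at 50.2 FPKM, the next having 33.7. That VEGFA library is also 1 of the 8 rich in CRYAA, as are unoperated 5-week replicate 4, unoperated 6-month replicate 3 and operated 6-month replicate 3. Whether lens RNA bears on these values was not tested.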

How the results depend on the processing

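Of 294 member values over the 6 comparisons 80 were called, 30 of these held in every setting and 50 were lost in at least 1. One reversed, FGFR2 at 6 months, at 0.19 with the most abundant transcript alone. Of the 214 uncalled values 41 were called in at least 1 setting. Leaving out 1 library each time gave 12 to 16 risen and 11 to 13 fallen members at 6 months, 13 to 17 and 8 to 11 in juveniles, 7 to 12 and 3 to 5 with age in unoperated eyes, 2 to 5 and 4 to 10 with age in operated eyes, and 0 to 2 fallen in the interaction. In juveniles 6 members fell with the top transcript and 6 with 6.5-week eyes alone. Of all genes 2437 and 2352 fell in these settings, against 2694 as deposited. Without the 8 CRYAA-rich libraries, a setting chosen after seeing the data, 9 rose and 5 fell in juveniles. All genes there had 1283 higher and 1361 lower, against 2141 and 2694 as deposited. This setting drops unoperated 5-week replicates 2, 4, 5 and 7 among others, so fewer controls remain. Whether lens RNA bears on the lost calls was not tested. With age in unoperated eyes 6 rose at a mean of at least 5 FPKM, as did 1168 of 9734 genes. FGF14, NRG2, NRG3 and FLT3LG average less and were not tested there, so their absence is no lost call. In the same comparison 6 rose with equal sums, 6 with lens and photoreceptor covariates, and 2 rose and 2 fell without CRYAA-rich libraries. Of all genes 1471 were higher and 1225 lower as deposited, and 875 and 1652 with equal sums. With covariates they were 741 and 801, and without CRYAA-rich libraries 279 and 320. With age in operated eyes 1 rose with equal sums, 3 with the top transcript, and 3 rose and 5 fell with covariates. Without late-numbered animals 1 rose, and on the compared groups alone 2 rose and 3 fell. Of all genes 761 were higher and 1266 lower as deposited, and 209 and 609 on the compared groups alone. With equal sums they were 329 and 1996, and with the top transcript 667 and 1127. Covariates gave 622 and 1082, and removal of late-numbered animals 658 and 1130. In that comparison 5 fell with 5-week eyes alone, and 2 rose and 5 fell with 6.5-week eyes alone. Without CRYAA-rich libraries 1 rose and 5 fell. In these settings, in that order, all genes had 550 higher and 831 lower, 397 and 785, and 459 and 846. In the interaction 1 fell with 5-week eyes alone. Of all genes 70 had a positive and 14 a negative difference there, against 95 and 46 in the main fit. The cause was not tested. No paired analysis was possible because each library carries a number of its own in the labels, with none shared between groups. Precision rests on 3 to 7 libraries a group, and depth is unknown.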

Other observations

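VEGF-D is listed under the older symbol FIGF, so the name rule did not take it up, and it was chosen after its values were seen. FIGF, a ligand for lymphatic and blood vessel receptors, averaged 2.33 ± 1.32 FPKM in operated eyes at 6 months and 6.59 ± 1.57 FPKM in unoperated eyes (SD, n = 6 and 7), a log2 change of -1.42 ± 0.22 (limma adjusted p = 1.35e-05). In juveniles the change was -0.03 ± 0.22 (limma adjusted p = 0.921), with 1.69 ± 0.446 FPKM in operated 5-week and 2.68 ± 0.477 FPKM in operated 6.5-week eyes, against 2.22 ± 0.532 FPKM in unoperated 5-week eyes (SD, n = 3, 3 and 7). The difference between the ages was -1.38 ± 0.31 (limma adjusted p = 0.0226), which no member of the families reached. In unoperated eyes FIGF rose with age by 1.38 ± 0.21 (limma adjusted p = 7.49e-05).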
